A study of Mus musculus with 7 samples.

Results

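A culture labelled paraxial mesoderm (group Pme), made from mouse embryonic stem (ES) cells, was set against the undifferentiated ES cells it came from (group SK7_ESC). These are 2 of the 7 arrays of the series, 1 array on each side. Both samples are SK7, a male mouse ES line that carries GFP behind the Pdx1 promoter, and the labels give the strain as ICR for both. SK7 is a single line, so every value below belongs to 1 line and 1 culture of each kind. The steps of the differentiation, any sort of the cells, the day of harvest and the use of feeder cells are not given in the sources used here. Total RNA was labelled with biotin and hybridised to the Affymetrix Mouse Genome 430 2.0 array, in which a gene is read by 1 or more sets of short probes. Among the probe sets annotated to a gene alone, the brightest by mean log2 signal across all 7 arrays stood for the gene, which gave 18194 genes, and signals under 50, taken as background, were raised to 50 before any ratio. Of these genes, 2054 differed by 2-fold or more between the arrays, 1227 of them (6.74% of all genes) higher and 827 (4.55%) lower in Pme.

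Paraxial mesoderm is the tissue on either side of the neural tube that segments into somites, from which vertebrae, ribs, skeletal muscle and dermis form. Its cells leave the epithelial epiblast through the primitive streak, lose E-cadherin, become motile and lay down a fibrous matrix, and in ES cell cultures they are commonly recognised by the receptor Pdgfra. ES cells are an epithelial, fast-dividing state held by Pou5f1, Sox2 and Nanog. Bulk RNA was measured here, so for every gene named below fewer cells of a type and less RNA per cell cannot be told apart. With 1 array a side there is no replicate, no error and no test. A fold describes these 2 hybridisations only, "higher" and "lower" stand for a ratio of 2-fold or more, and "at least" marks a ratio in which the dimmer signal was under background. Where a pair of signals is given without names, SK7_ESC comes first and Pme second.

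The markers chosen for this culture were high in Pme. Pdgfra, a receptor for platelet-derived growth factor, had a signal of 76.1 in SK7_ESC and 1062 in Pme (14-fold higher). The mesenchymal cadherin gene Cdh11 had 47.9 in SK7_ESC and 2208 in Pme (at least 44.2-fold). For Snai2, a repressor that acts in epithelial to mesenchymal transition, the signals were 49.2 and 2139 (at least 42.8-fold), and for the matrix proteoglycan gene Dcn they were 21.9 and 1766 (at least 35.3-fold). With predicted genes left out, Cdh11 and Snai2 had the largest ratios of all genes higher in Pme. Both had SK7_ESC signals under background, so their ranks follow their Pme signals. Since the genes were chosen with earlier results of these data known, these ranks are no evidence on the identity of the culture. None of the 4 marks somites alone, since Dcn and Pdgfra are also genes of fibroblasts. Nor were all 4 particular to Pme. In the ectoderm culture Dcn was at 951, Cdh11 at 800, Snai2 at 182 and Pdgfra at 42.5. The endoderm culture had 148, 119, 44.4 and 96.2 for the same genes. If the cells were sorted on Pdgfra or on E-cadherin, which the sources used here do not give, the values of Pdgfra and Cdh1 would not be independent of that sort.

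Most of the listed genes of presomitic mesoderm and somites were under background in both arrays. Of the 24 measured here, 4 (16.7%) had a higher signal in Pme, 1 (4.17%) was lower, 2 were neither and 17 were under background in both arrays. T, another gene of this list, was not measured. In the whole table, 6.74% of genes were higher and 4.55% lower, and among genes above background in either array 13.2% and 8.88%. The list counts that follow are to be read against the first pair. Lists with few members under background in both arrays are to be read against the second. Among these are the DNA methylation, membrane, Hippo, immediate early, p53, cell cycle, replication, ribosomal, serine and secretory lists. Tbx6, the T-box factor of presomitic mesoderm, had 13.4 in SK7_ESC and 17.7 in Pme. Msgn1, which acts beside it, had 17.5 and 2.7, and the somite factor Meox1 had 1.1 and 16. All of these signals lay under background. Tcf15, the factor that makes somites epithelial, had 111 in SK7_ESC and 29.1 in Pme, and was at least 2.22-fold lower. Pax3, a factor of the dermomyotome, reached 56.6 in Pme from 6.0, just over background. The higher members were Pdgfra, the mesenchymal factors Prrx1 (27.5 and 305) and Twist1 (9.5 and 199.5), and Cyp26a1 (13.7 and 123), an enzyme that breaks down retinoic acid. Lateral plate and heart genes, described below, were higher in 8 of 18 cases. The label paraxial mesoderm is used here only as the submitters' name of the culture. With a background of 100, Twist1 and Cyp26a1 no longer reached 2-fold higher, nor Tcf15 2-fold lower, and Prrx1 was under 2-fold when its probe sets were averaged.

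**Figure D1:**
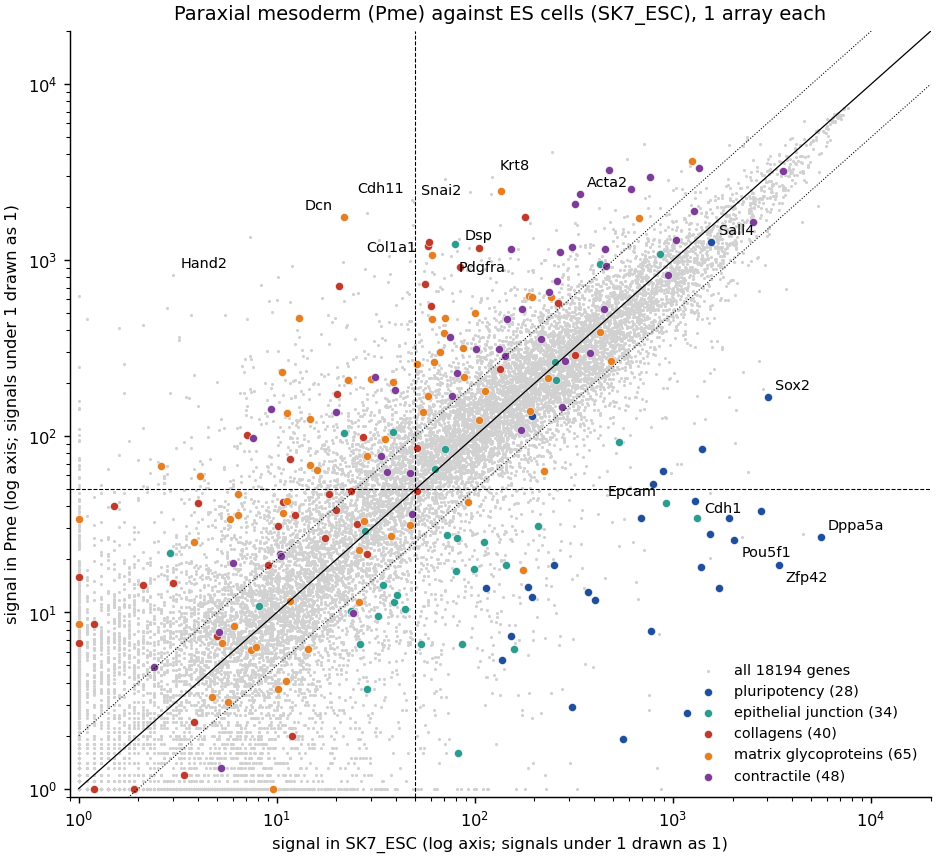
Signal of each gene in SK7_ESC (x axis) and Pme (y axis), 1 array each, on log axes, with grey points for all 18194 genes and colours for 5 gene lists. The solid line is equality, the dotted lines 2-fold and the dashed lines the background of 50; pluripotency genes such as Pou5f1 (2038 and 25.7) lie far below the diagonal, and Dcn (21.9 and 1766), Col1a1 (57.7 and 1204) and Acta2 (339.8 and 2383) far above it.

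Background was exceeded on 1 or both arrays by 9312 genes, and of these 13.2% were higher and 8.88% lower in Pme. In 436 of the higher genes and 263 of the lower genes the dimmer signal was under background. A ratio of 4-fold or more was found for 312 genes higher and 171 lower, and 16-fold or more for 28 and 23. At 10-fold or more the counts were 68 higher and 46 lower. At 32-fold or more they ran the other way, with 9 genes lower against 5 higher. All of the latter ratios except those of Upp1 and Amot are bounds, so this count follows how bright the brighter signal was. Genes higher in Pme made up 59.7% of those apart. The split turned when arrays were scaled to the same median, with 983 higher, 1292 lower and a share of 43.2%, since the array medians were 15.6 in SK7_ESC and 18.4 in Pme. That scaling moved the median log2 ratio of genes above background from 0.03 to -0.18. Close to the limit, Stau1 (148 and 297) and Fbxw17 (104 and 208) were just counted as higher and Stag2 (442 and 882) and Slc39a6 (308 and 614) just not. Stau1 also lost its call with the geometric mean described next. On the other side Acot1 (242 and 121) and Slc25a36 (1220.5 and 610.1) were just counted as lower and Lrp2 (111 and 55.6) and Ahsa1 (1290.2 and 646) just not. A call depends on the probe set too. When a gene was given the geometric mean of all its probe sets in place of the brightest, 736 of the 2054 calls were lost. A gene whose values are given below is named where it lost its call this way, and a list's count of 4 or more is given where this setting moved it by over 1.5 times. With a background of 100 a call needs a signal of at least 200 on the brighter side, and 699 calls were lost. Genes named below as neither higher nor lower were chosen after their values were seen.

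The 25 largest ratios upward held 0 pluripotency genes, and 5 of the 25 were in the lists of matrix and fibroblast genes. Amot, an angiomotin that binds Yap1 at junctions, had 71.1 in SK7_ESC and 2907 in Pme (40.9-fold). Pmp22, a myelin and growth arrest protein, had 28.4 and 1855 (at least 37.1-fold), and Rgs5, a G protein regulator best known from pericytes, had 7.3 and 1351 (at least 27-fold). Secreted and surface products besides Cdh11 were Dcn, Dlk1, Vasn (49.5 and 1146), a trap for TGF-β, Col6a1, Col1a1, Igf2, neuritin (Nrn1, 21.5 and 979.8), Bgn, Ccdc80 (27.9 and 897), Gpc3 and Wls, the carrier that brings Wnt proteins to the surface (56.9 and 967). Cytoskeletal products were Krt8, Krt18, Capn6 (11.9 and 929.6) and Stard8 (36.9 and 1056). Regulators of transcription were Snai2, Jun, Id3, Peg3 and Meis2, a partner of Hox proteins (37.4 and 834). Spin2c, a spindlin family gene, had 48.7 and 1580.5 (at least 31.6-fold).

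Of the 25 largest ratios downward, 12 were genes of the pluripotency list. Dppa5a, an RNA-binding protein of ES cells, had 5574 in SK7_ESC and 26.8 in Pme (at least 111-fold lower) and had the largest ratio of all genes. Chchd10, a mitochondrial protein of the cristae, followed with 4519 and 28 (at least 90.4-fold). Zfp42, known as Rex1, had 3415 and 18.5, and the fatty acid carrier Fabp3 had 2227 and 26.8. Genes outside that list were of comparable size. Upp1, which breaks uridine down, had 2387 and 62.7 (38.1-fold), the melanosome regulator Mreg had 1541 and 47.4, the tumour rejection antigen gene Trap1a had 1535 and 20.4, and Ipp, an actin-binding kelch protein, had 2065 and 91.8. Morc1, which silences transposons in the male germline, had 867 and 0.3, and the myoblast fusion peptide gene Mymx had 829.5 and 1.3. Car2, a carbonic anhydrase, had 1098 and 69.3 (15.8-fold), and Zfp979 had 977 and 62.2.

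Pluripotency genes were lower almost throughout. Of 28 measured, 26 were lower, 0 higher and 2 neither, with a median log2 ratio of -3.84 against 0 over all genes. Tdgf1, the co-receptor of Nodal, had 2788 in SK7_ESC and 37.6 in Pme. L1td1, an RNA-binding protein of ES cells, had 1924 and 34.5, and Fbxo15, a target of Pou5f1 and Sox2, had 1702 and 13.7. Sox2 was above background, at 167 in Pme from 3029.7 (18.1-fold lower). The Krüppel-like factors of the naive state showed the same split, with Klf4 at 894 and 63.9 and Klf5 at 797 and 54, above background in Pme, and Klf2 at 689 and 34.4. The exceptions were Sall4, a zinc finger factor of ES cells and early mesoderm, at 1565 in SK7_ESC and 1274 in Pme, and Tbx3 at 194 and 130.5. Nanog (1533 and 27.8), Utf1 (1384 and 18.2), Dppa4 (1289 and 43.2), Dppa2 (1175 and 2.7) and Mybl2 (1395 and 85) were also among the largest ratios. The call for Klf5 did not hold with the geometric mean of its probe sets.

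Part of the genes of germ cells and meiosis that ES cells express were lower. Of 42 measured, 11 were lower, 0 higher, 12 above background and neither, and 19 under background in both arrays. Of those 12, 11 had a signal under 100 in SK7_ESC, from which a ratio of 2-fold to the background cannot be reached, and the other was Kit (315 and 257). Rhox5, an X-linked homeobox gene, had 1051 in SK7_ESC and 69.7 in Pme (15.1-fold lower). Stra8, which starts meiosis, had 359.7 and 5.1, and Dmrt1, a factor of the testis, had 303 and 1.4. Sycp3, a protein of the chromosome axis in meiosis, had 242 and 14.1, and Dppa3, a maternal factor that guards methylation, had 252 and 18.7. Tex19.1, which restrains retrotransposons, had 251 and 11. All but Rhox5 among these 6 were under background in Pme. The lower genes of the list were 7 with a background of 100.

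Of 18 measured genes that write, read or erase DNA methylation, 8 were lower and 2 higher. Dnmt3l, the partner that activates the de novo methyltransferases, had 848 in SK7_ESC and 7.5 in Pme (at least 17-fold lower). Tet1, which oxidises methylcytosine, had 1444 and 125 (11.5-fold), and Tet2 had 210.1 and 91.1. Dnmt3b, a de novo methyltransferase, was at 599 from 1888 (3.15-fold). Hells (1786 and 799), a remodeller needed for methylation, and Gadd45a (398 and 109), a stress protein linked to demethylation, completed the 6 largest. The maintenance enzyme gene Dnmt1 was neither, at 710.2 and 521. Higher were Uhrf2 (150.0 and 482), a relative of the maintenance factor Uhrf1, and Mbd2 (72.1 and 209), a reader of methylated DNA. Hells was under 2-fold with the geometric mean of its probe sets.

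Among 46 chromatin genes, 8 were lower and 4 higher. Of the 43 above background that is 18.6% and 9.3%, against 8.88% and 13.2% over all such genes. The lower ones were mostly of Polycomb complexes, which silence developmental genes. Phc1, of the complex PRC1, had 1545 in SK7_ESC and 228 in Pme (6.76-fold lower), and Cbx7, its reader of methylated histone, had 238 and 47.3. Of PRC2, Jarid2 had 1297 and 321, Eed 1743 and 611 and Suz12 1035 and 422, while the catalytic subunit gene Ezh2 was neither, at 1537 and 1211. Kdm4c, a demethylase of histone H3, had 377 and 83.5. Higher were other paralogues of the same complexes and of a remodeller, namely Phc2 (243 and 497), Bmi1 (129 and 291), Smarca2 (15.2 and 199), and the H3K27 demethylase gene Kdm6b (149 and 424). Eed, Cbx7, Kdm6b and Smarca2 lost their call with the geometric mean of their probe sets, and Phc2 and Bmi1 with arrays scaled to the same median. The list had 2 higher and 5 lower in the former case and 2 higher in the latter.

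Of 18 measured lateral plate and heart genes, 8 were higher, 0 lower and 6 under background in both arrays. Hand2, a bHLH factor of limb and heart, had 3.0 in SK7_ESC and 821 in Pme (at least 16.4-fold higher), and its relative Hand1 had 19.6 and 469.5 (at least 9.39-fold). Foxf1, a factor of the splanchnic mesoderm, had 14.2 and 278, and Gata6 had 60.6 and 409. Tbx20, a heart factor, had 11.3 and 137. In the endoderm culture Hand2 and Foxf1 were at 19.7 and 13.1, and in the ectoderm culture at 60.6 and 23.4. Of 11 kidney and gonad field genes, 1 was lower, Sall1 (729 and 307), and 8 were under background in both arrays. With a background of 20 this list had 3 higher and 1 lower. Of 17 regulators of muscle, cartilage and bone, 15 were under background in both arrays, Myod1 (12.5 and 2.1) among them, and Alpl, alkaline phosphatase, was lower (203 and 56.7).

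Hox genes, whose order along 4 chromosomal clusters follows position along the body axis, were under background in ES cells and above it in part in Pme. All 33 measured members were under background in SK7_ESC, 12 were at least 2-fold higher in Pme, 0 were lower, 4 were above background but neither, and 17 were under background in both. Hoxa9 had 9.1 in SK7_ESC and 587 in Pme (at least 11.7-fold) and Hoxd9 had 3.7 and 489 (at least 9.79-fold). Hoxd8 (13.5 and 286), Hoxc8 (7.3 and 285), Hoxa10 (8.7 and 201) and Hoxd10 (9.4 and 188) were higher too. Signals of different Hox genes come from different probes and were not ranked. Hoxb2 was at 127 and Hoxb3 at 179 in Pme against 591 and 576 in the ectoderm culture. Above background were 16 of the 33 in Pme, 14 in the ectoderm culture and 1 in the endoderm culture, Hoxa9 at 54.2. With the geometric mean of their probe sets, Hoxa10 and Hoxb3 were under 2-fold. With a background of 100 only 5 of the 12 stayed higher, Hoxa9, Hoxd9, Hoxd8, Hoxc8 and Hoxa10, and the 7 that lost their call had signals under 200 in Pme.

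**Figure D2:**
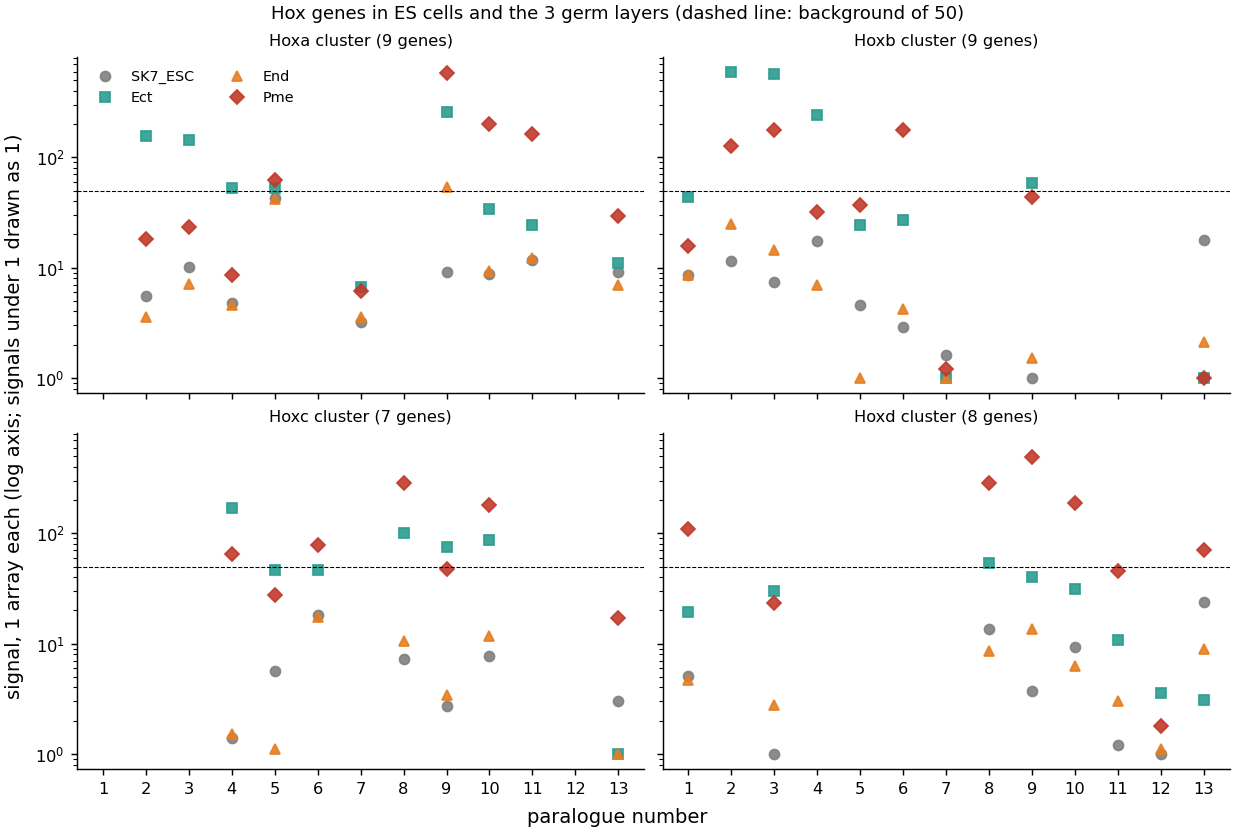
Signals of the 33 measured Hox genes by cluster and paralogue number in SK7_ESC and in the ectoderm (Ect), endoderm (End) and paraxial mesoderm (Pme) cultures, 1 array each, on a log axis with the background of 50 dashed. SK7_ESC points lie under the line throughout, and 16 of the 33 Pme points lie above it, Hoxa9 (587) and Hoxd9 (489) among them.

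Transcription factors of mesenchyme were higher in 18 of 39 measured cases, with 0 lower and a median log2 ratio of 0.85. Beside Snai2, the inhibitors of bHLH factors Id3 (47 and 991) and Id2 (93.2 and 1178) were the largest. Meis2 followed, then Nfix, a nuclear factor I gene, at 31.6 and 494, and the homeobox gene Msx2 at 19 and 445. Twist1, Twist2, Prrx1, Prrx2 and Zeb1 were higher as well, whereas Snai1 (13.1 and 57) and Zeb2 (11.7 and 99.2) were above background in Pme without reaching 2-fold over it. Id2, Meis2 and Id3 were not particular to Pme, with 1744, 951 and 879 in the ectoderm culture. The endoderm culture had 221, 44.2 and 676 for them. Of 17 neural crest genes, 5 were higher and 0 lower. These were Snai2, Msx2, Msx1 (12.9 and 368), Ets1 (22.1 and 208) and the retinoid carrier Crabp1 (114 and 334). With the geometric mean of probe sets 11 factors in place of 18 and 3 neural crest genes in place of 5 were higher, and Nfix, Msx2, Prrx1, Zeb1 and Ets1 were among those under 2-fold. Msx1 lost its call when probe sets of shared sequence were left out.

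Markers of other fates the culture could hold gave mixed counts. Of 19 trophoblast and extraembryonic genes, 7 were higher and 2 lower, and their summed signal was 1916 in SK7_ESC and 9353 in Pme. Most of that sum in Pme was Krt8 and Krt18, keratins of simple epithelia in general, and without them it was 1699 in SK7_ESC and 3933 in Pme. Cdx2, a factor of trophoblast and of the posterior embryo, had 1.6 in SK7_ESC and 415 in Pme, and Plac1, a placental gene, had 24.4 and 642. Elf5 (0.9 and 1.5) and Tpbpa (2.2 and 4.6), each a marker of only some trophoblast cells, were under background, and Tfap2c had 348 and 17.9. A trophoblast part of the culture was not tested. Of 21 endothelial and blood genes, 1 was higher, Cd34 (14.6 and 163), while Cdh5, the cadherin of endothelium, had 1.4 and 1.5. The summed signal of that list was 419.7 and 617. Of 16 endoderm genes, Cxcr4 was higher (7.0 and 166) and Trh lower (173 and 2.8). Of 17 neural genes, Ncam1 was higher (63.9 and 290.5) and 3 were lower, Stmn2 (1275 and 118), Sox1 (118 and 5.6) and Tubb3 (116 and 21.8). None of 12 macrophage genes was apart, and 11 of them were under background in both arrays, with sums of 171 and 114. Of 5 Y-linked genes, 0 were apart, and Eif2s3y, the brightest, had 551 in SK7_ESC and 297 in Pme. Ncam1 and Sox1 lost their call with the geometric mean of their probe sets.

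The list of fibroblast genes, kept to show what stromal or feeder cells would add, was higher in 12 of 16 cases with 0 lower. Its summed signal was 3245 in SK7_ESC and 15875 in Pme. The largest were Dcn, Col1a1, Col3a1, Col5a2, Col1a2 and Pdgfrb (33.5 and 424), of which 4 are also in the list of collagens. Thy1 (38.2 and 24.5), Fap (1.4 and 2.4) and Lum (10.8 and 36.8), which also mark fibroblasts, were under background in both arrays. These genes are shared by embryonic mesenchyme and fibroblasts, and they were higher together with the matrix and contractile genes that follow. The part of feeder or stromal cells in those results was not tested.

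Fibrillar and network collagens were brighter in Pme. Of 40 measured chains 11 were higher, 0 lower, and 23 were under background in both arrays. Type I collagen, the main fibre of connective tissue, had 57.7 in SK7_ESC and 1204 in Pme for Col1a1 and 179.5 and 1773 for Col1a2. Type VI, which forms beaded filaments around cells, had 58.7 and 1267 for Col6a1 and 56.3 and 737 for Col6a2. Col3a1 had 105 and 1182. Col4a5, a chain of basement membranes, had 20.5 and 713 (at least 14.3-fold). Against this, Col6a3 (50.9 and 48.9), the partner chain of type VI, was neither. Machinery that modifies collagen was higher in 8 of 25 cases with 0 lower. Serpinh1, the collagen chaperone Hsp47, had 512 in SK7_ESC and 1928 in Pme (3.76-fold), Loxl1, a cross-linking oxidase, had 62.9 and 289, and Fkbp7, P3h4, Fkbp14 and P4ha2 were at least 6.41-fold, 4.09-fold, 3.85-fold and 3.44-fold higher. Loxl1, Fkbp7 and Fkbp14 lost their call with the geometric mean of their probe sets, which left 5 higher.

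Proteoglycans and glycoproteins of the matrix were higher in 26 of 65 cases and lower in 2. Bgn, biglycan, had 136 in SK7_ESC and 2464 in Pme (18.1-fold), and Gpc3, a heparan sulphate proteoglycan of the cell surface, had 60.5 and 1072 (17.7-fold). Ogn, osteoglycin, had 13 and 469, versican (Vcan) had 60.7 and 465, and thrombospondin 1 (Thbs1) had 70.6 and 470.0. Lower were Ltbp4, which anchors latent TGF-β (224 and 63.2), and Mgp, an inhibitor of calcification (176 and 17.5). Of 10 laminin chains, the building blocks of basement membranes, Lama4 (7.6 and 249) and Lamb2 (28 and 114) were higher and Lama1 (198 and 62.9) was lower. Proteases of the matrix and their inhibitors were higher in 11 of 35 cases with 0 lower. They held Mmp2 (67 and 704), a gelatinase, and its inhibitors Timp3 (22.5 and 428) and Reck (81.7 and 463) together with Mmp3 (34 and 361), Plat (32.3 and 329.6) and Adamts9 (25 and 282). With the geometric mean of probe sets 15 proteoglycan and glycoprotein genes were higher in place of 26, and Vcan and Plat were under 2-fold.

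**Figure D3:**
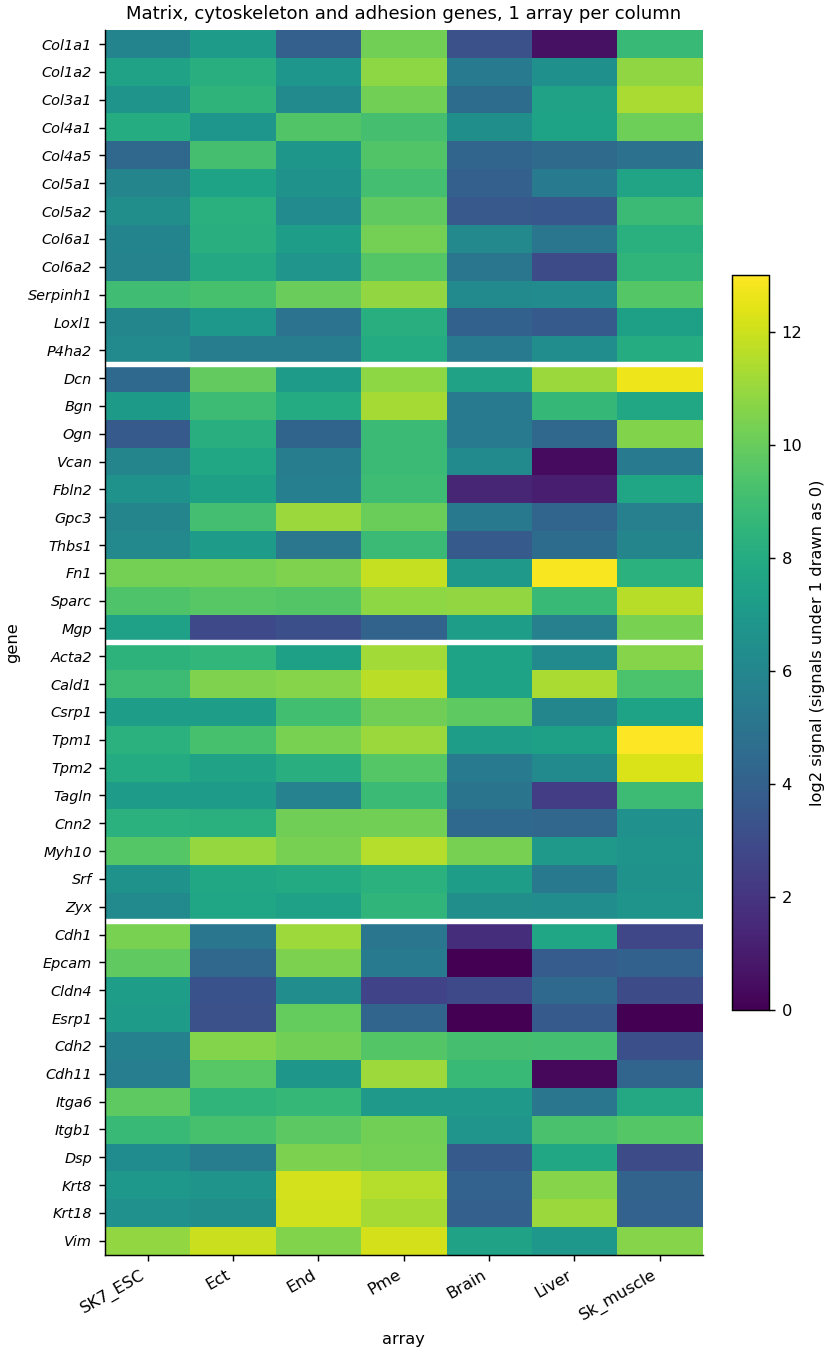
Log2 signal of 44 genes of the matrix, actin cytoskeleton and adhesion in each of the 7 arrays, 1 array per column, with signals under 1 drawn as 0. Within the cultured cells the Pme column is brightest for Col1a1 (1204), Bgn (2464) and Acta2 (2383). It is dark for Cdh1 (34.4) and Epcam (41.7), as is the Ect column (34.9 and 21.1).

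Genes of the actin cytoskeleton, the smooth muscle set among them, were higher in 25 of 48 measured cases with 0 lower, and the median log2 ratio was 1.01 against 0 over all genes. Csrp1, a LIM protein of smooth muscle, had 152 in SK7_ESC and 1161 in Pme (7.65-fold). Smooth muscle actin, Acta2, had 339.8 and 2383 (7.01-fold), caldesmon (Cald1) had 477 and 3256 (6.83-fold), and the tropomyosin gene Tpm1 had 319.9 and 2099 (6.56-fold). Zyx, zyxin of focal adhesions, had 75.1 and 366, and Parva, parvin, had 31.5 and 219. Actc1, the cardiac muscle actin, is in this list and was higher, at 9.3 and 142. In a separate list of 31 sarcomere genes of striated muscle, 25 were under background in both arrays and 0 were higher. Mylpf, a fast muscle light chain, was lower, at 663 and 12. The call for Zyx was lost with the geometric mean of its probe sets, and that for Acta2 when probe sets of shared sequence were left out.

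Promoters of these genes were searched for the CArG box, the site of serum response factor (Srf), because Srf drives many actin genes and was itself higher, with 101 in SK7_ESC and 313 in Pme (3.1-fold). The windows, from RefSeq on GRCm38.p6, run from 250 bases before to 50 after the start of the gene and were searched on both strands. A match was found in 1.63% of all 32851 windows and in 1.58% of the 14453 genes measured here that have a window. Of the 41 members of the list with a window, 9 (22%) had a match. Among the 22 higher members with a window 7 (31.8%) had one, namely Actc1, Cnn2, Fhl1, Myl6, Myl9, Srf and Vcl. Of the 14 members above background that were neither, 1 had (7.14%). Acta1 and Fhl2 had a match and were not higher. Acta2 and Csrp1 had none in this window, which says only that these letters were not there. The list was made of actin cytoskeleton genes and holds Srf itself, so its share of matches is not independent of that choice. A match is a description of the sequence and no binding was measured, and a part of Srf in these ratios was not tested. The windows of 4 higher members are shown, with the CArG box in capitals. Srf is at chr17:46556113-46556412, minus strand, Cnn2 (calponin 2, signals 310.3 and 1184) at chr10:79988350-79988649, plus strand, Myl6 (a myosin light chain, 81.3 and 229.7) at chr10:128492960-128493259, minus strand, and Vcl (vinculin, 460.4 and 928) at chr14:20929148-20929447, plus strand. Srf and Vcl lost their call with the geometric mean of their probe sets, Srf also without probe sets of shared sequence, and Vcl and Myl9 with arrays scaled to the same median.
Srf: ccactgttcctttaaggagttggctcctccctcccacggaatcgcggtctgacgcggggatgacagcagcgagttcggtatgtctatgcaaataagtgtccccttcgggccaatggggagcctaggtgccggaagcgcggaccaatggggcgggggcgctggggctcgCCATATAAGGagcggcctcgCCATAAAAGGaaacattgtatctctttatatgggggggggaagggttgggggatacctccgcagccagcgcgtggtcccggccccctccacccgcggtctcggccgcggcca
Cnn2: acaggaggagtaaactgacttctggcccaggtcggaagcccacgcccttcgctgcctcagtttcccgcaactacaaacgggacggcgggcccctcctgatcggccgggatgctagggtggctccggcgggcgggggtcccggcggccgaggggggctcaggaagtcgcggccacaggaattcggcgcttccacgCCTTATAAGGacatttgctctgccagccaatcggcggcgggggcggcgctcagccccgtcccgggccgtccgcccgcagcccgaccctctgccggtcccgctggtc
Myl6: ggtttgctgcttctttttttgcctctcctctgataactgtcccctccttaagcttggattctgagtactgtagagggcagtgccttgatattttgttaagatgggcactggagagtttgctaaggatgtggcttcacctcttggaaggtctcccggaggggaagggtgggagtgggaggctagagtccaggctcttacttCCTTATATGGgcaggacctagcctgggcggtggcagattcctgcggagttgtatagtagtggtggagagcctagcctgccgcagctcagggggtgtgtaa
Vcl: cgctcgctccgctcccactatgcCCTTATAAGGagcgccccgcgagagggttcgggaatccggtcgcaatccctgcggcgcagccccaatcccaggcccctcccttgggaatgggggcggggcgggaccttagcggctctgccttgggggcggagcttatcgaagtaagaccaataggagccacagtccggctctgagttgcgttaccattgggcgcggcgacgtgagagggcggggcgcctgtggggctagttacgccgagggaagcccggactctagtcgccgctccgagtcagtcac

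Part of the genes of epithelial adhesion were lower, and a few were higher. Of 34 measured genes of epithelial junctions and their regulators, 7 were lower, 4 higher, 12 neither and 11 under background in both arrays. Of the 23 above background, 30.4% were lower and 17.4% higher, against 8.88% and 13.2% over all such genes. E-cadherin, Cdh1, had 1321 in SK7_ESC and 34.4 in Pme (at least 26.4-fold lower), and Epcam, an epithelial adhesion molecule, had 921 and 41.7 (at least 18.4-fold). The protease inhibitor genes Spint2 (533 and 92.8) and Spint1 (209 and 31.1), the claudin genes Cldn4 (157 and 6.2) and Cldn6 (111 and 25), and Esrp1 (144 and 18.6), the regulator of epithelial splicing, were lower as well. The 4 higher genes were 3 of desmosomes and P-cadherin. Desmoplakin, Dsp, had 79.8 in SK7_ESC and 1236 in Pme (15.5-fold higher), plakophilin 2 (Pkp2) had 428 and 958, desmocollin 2 (Dsc2) had 21.9 and 104, and P-cadherin (Cdh3) had 38.5 and 106. Of the other 4 desmosome genes measured, a group formed after the values were seen, Dsg2 (257 and 210.3) and Jup (63.3 and 65.3) were neither, and Pkp1 and Pkp3 were under background in both arrays. Krt8 (123 and 2969, 24.2-fold) and Krt18 (94.4 and 2451, 26-fold), the keratin pair of simple epithelia, were higher together with Krt19 (36.8 and 195) and vimentin, Vim (1919.9 and 4509.6), the filament of mesenchyme. Vim and Pkp2 were under 2-fold with arrays scaled to the same median, and Pkp2 also without probe sets of shared sequence. Dsc2 and Cdh3 were just over 2-fold and lost their call under quantile normalization and with the geometric mean of their probe sets, which left 2 higher genes in each case. The list had 2 higher and 4 lower with a background of 100.

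The E-box CACCTG, or CAGGTG on the other strand, is the site that Snai and Zeb repressors recognise. It was found in 22.9% of the 14453 measured genes with a window and in 80% of the 20 epithelial junction genes that have one. The lower members Cdh1 and Esrp1 had no window. Among the 5 lower members with a window 4 had it, and among the 9 that were above background and neither 6 had it (66.7%), so its presence did not part the lower members from the others. In the contractile list it was found in 7 of the 41 genes with a window (17.1%). Windows of the 4 lower members are printed with the E-box in capitals. Epcam is at chr17:87635729-87636028, plus strand, Cldn4 at chr5:134946885-134947184, minus strand, Cldn6 at chr17:23679115-23679414, plus strand, and Spint2 at chr7:29281928-29282227, minus strand, with 2, 2, 2 and 3 matches.
Epcam: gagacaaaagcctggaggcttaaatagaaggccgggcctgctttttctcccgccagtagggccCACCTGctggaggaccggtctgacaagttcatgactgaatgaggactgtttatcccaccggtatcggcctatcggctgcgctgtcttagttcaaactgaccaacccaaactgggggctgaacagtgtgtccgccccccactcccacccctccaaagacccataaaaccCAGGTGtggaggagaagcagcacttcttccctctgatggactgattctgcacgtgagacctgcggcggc
Cldn4: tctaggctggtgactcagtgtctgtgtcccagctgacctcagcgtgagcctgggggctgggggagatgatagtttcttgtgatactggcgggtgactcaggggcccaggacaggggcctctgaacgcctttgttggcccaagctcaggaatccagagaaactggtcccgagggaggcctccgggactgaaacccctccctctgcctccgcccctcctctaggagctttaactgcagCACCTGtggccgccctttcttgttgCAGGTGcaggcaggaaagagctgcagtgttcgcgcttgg
Cldn6: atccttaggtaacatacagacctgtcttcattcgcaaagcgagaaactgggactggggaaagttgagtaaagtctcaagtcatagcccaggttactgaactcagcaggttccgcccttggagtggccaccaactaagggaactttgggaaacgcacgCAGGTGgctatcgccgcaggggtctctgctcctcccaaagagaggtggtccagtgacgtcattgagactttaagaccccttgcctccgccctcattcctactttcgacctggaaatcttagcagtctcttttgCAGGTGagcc
Spint2: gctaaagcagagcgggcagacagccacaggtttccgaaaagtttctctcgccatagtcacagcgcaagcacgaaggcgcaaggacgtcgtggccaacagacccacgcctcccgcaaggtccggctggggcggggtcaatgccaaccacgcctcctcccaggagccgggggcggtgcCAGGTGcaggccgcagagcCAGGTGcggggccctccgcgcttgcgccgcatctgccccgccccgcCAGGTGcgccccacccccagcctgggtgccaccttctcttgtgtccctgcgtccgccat

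Of 18 cadherins and catenins, 3 were higher and 1 lower. Cdh2, N-cadherin, had 52.2 in SK7_ESC and 734 in Pme (14.1-fold higher) beside the higher Cdh11 and the lower Cdh1, while the catenin genes that link them to actin, Ctnna1 (2467 and 3166) and Ctnnb1 (3757 and 3916), were neither. Of 24 integrin subunits, which bind the matrix, 4 were higher and 1 lower. Itgb1 (449 and 1198), the common β subunit, and Itgav (392 and 947) were higher, as were Itgb8 (5.4 and 111) and Itgb5 (217 and 478). Itga6, a laminin receptor of ES cells, was 6.96-fold lower, with 884 and 127. A mixed list of membrane-associated proteins was higher in 17 of 34 cases. It holds caveolae proteins, annexins, S100 proteins, galectins, tetraspanins and other surface and membrane proteins such as Cd44. Beside Pmp22, Ahnak, a giant scaffold protein, had 116 and 1319, Cd44, the hyaluronan receptor, had 67.9 and 689, Cd24a had 584 and 3746, Emp2 had 48.1 and 273 and Cd82 had 14 and 235. Lower were galectin 3, Lgals3 (238 and 81.1), and the tetraspanin gene Cd9 (1323 and 462). With the geometric mean of probe sets 2 integrins and 11 membrane genes were higher, and Itgb1, Itgav, Ahnak and Cd82 were under 2-fold, and Itgb5 with arrays scaled to the same median.

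**Figure D4:**
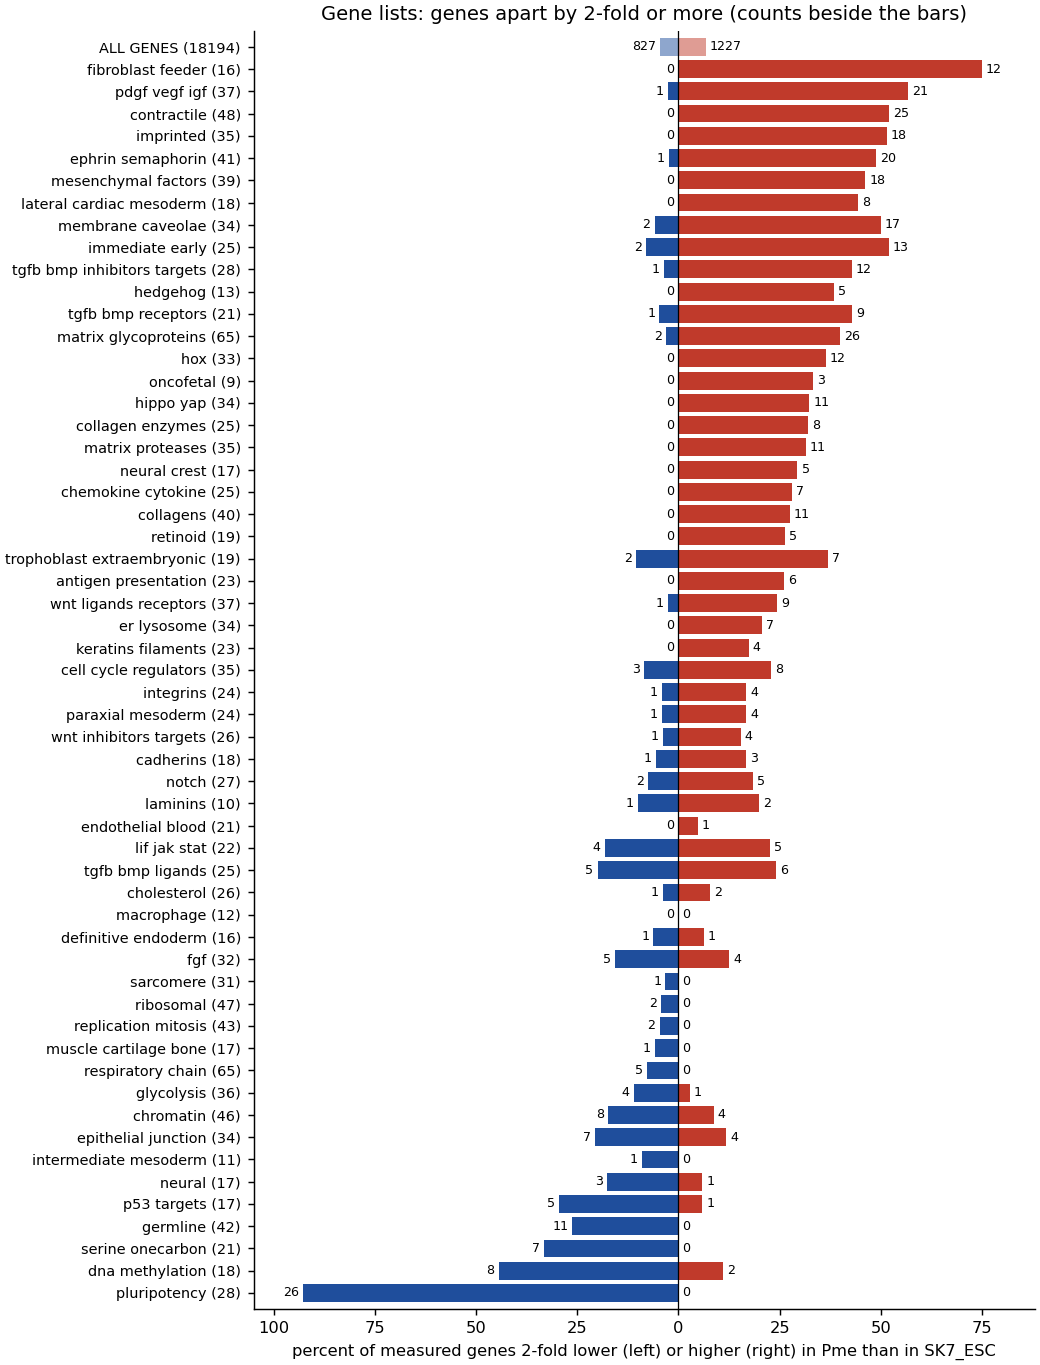
Percent of the measured genes of each of 56 lists with 9 or more measured genes that were 2-fold lower (left, blue) or higher (right, red) in Pme than in SK7_ESC, with the number of measured genes in brackets and the number of genes beside each bar. The top bar gives all 18194 genes, of which 1227 were higher and 827 lower; pluripotency (26 of 28 lower) and fibroblast genes (12 of 16 higher) stand at the ends.

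Of 25 measured ligands of the TGF-β family, 6 were higher and 5 lower, BMP and TGF-β genes on the higher side and Nodal, Lefty and activin genes on the lower. Bmp4, which patterns ventral and lateral mesoderm, had 67.9 in SK7_ESC and 1084 in Pme (16-fold), and Tgfb2 had 8.3 and 725 (at least 14.5-fold). Gdf10 (7.4 and 274), Bmp2 (6.7 and 252), Tgfb1 (11 and 208) and Bmp5 (6.5 and 177) were higher from signals under background. Nodal, the ligand of the primitive streak, had 306 in SK7_ESC and 50.4 in Pme (6.07-fold lower). Its feedback inhibitors Lefty1 (649 and 14.9) and Lefty2 (126 and 17.8) and the related Gdf3 (405 and 11.7) were lower too, as was the activin subunit gene Inhbb (153 and 26). Tgfb1 and Inhbb lost their call with the geometric mean of their probe sets, and 3 ligands were lower with a background of 100.

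Of 21 receptors, co-receptors and Smads, 9 were higher and Tdgf1 was lower. Tgfbr3 (59 and 473), Tgfbr2 (47.5 and 296) and Tgfbr1 (187 and 682) bind TGF-β, and Acvr1 (85.1 and 349) and Bmpr2 (174 and 588) bind BMPs. Of 28 inhibitors and targets, 12 were higher. The BMP targets Id3 and Id2 were at least 19.8-fold and 12.6-fold higher, and Id1 (107 and 594) was 5.54-fold. Antagonists of the pathway were among the largest, with the decoy receptor gene Bambi at 55.3 in SK7_ESC and 871 in Pme (15.8-fold) and the inhibitory Smad6 at 45.6 and 664 (at least 13.3-fold). Tgif1, a corepressor of Smads, was lower, at 734 and 231. Tgfbr2, Acvr1 and Bmpr2 were under 2-fold with the geometric mean of their probe sets.

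Wnt ligands and receptors were higher in 9 of 37 cases and lower in 1. Wnt5a, a ligand that steers cell movement and acts largely apart from β-catenin, had 16.9 in SK7_ESC and 613 in Pme (at least 12.3-fold), and its receptor gene Ror2 had 39.9 and 162. The Frizzled receptor genes Fzd2 (47.5 and 450.5), Fzd1 (40.3 and 286), Fzd4 (33.6 and 184) and Fzd6 (43.3 and 179) were higher, while Fzd5 had 317 and 30.8 and was lower. Of 26 inhibitors and targets, the secreted inhibitor genes Frzb (7.3 and 187) and Dkk1 (13.2 and 128) were higher with Lef1 (64.6 and 228) and Myc (101 and 218), and Sfrp2 (283 and 98.3) was lower. Axin2, a common readout of β-catenin, was 18.2 in SK7_ESC and 87.4 in Pme, above background in Pme without reaching 2-fold over it. The higher ligands and receptors were 4 in place of 9 both with the geometric mean of probe sets and with a background of 100, and the higher inhibitors and targets 2 with the latter. Fzd4, Fzd6, Ror2 and Dkk1 lost their call with the geometric mean of their probe sets and Myc under both quantile normalization and scaling to the same median.

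Of 32 measured genes of FGF signalling, 4 were higher, all of them receptors, and 5 lower. Fgfr2 had 54.5 in SK7_ESC and 276 in Pme, Fgfr3 50.4 and 205, Fgfr1 139.9 and 322, and Fgfrl1, a receptor without a kinase, 143 and 303. Fgf4, the ligand ES cells make, had 196 and 12.2, and the carrier gene Fgfbp1 had 114 and 4.3. Of 9 measured genes that FGF signalling induces or that feed back on it, grouped after their values were seen, 3 were lower, Etv5 at 936 in SK7_ESC and 188 in Pme (4.98-fold), Etv4 at 116 and 23.3 and Spry4 at 163 and 49.4. The other 6 were neither, namely Dusp6 (478 and 488), Spry1 (95.4 and 145), Spry2 (531 and 423), Spred1 (428 and 447), Spred2 (519 and 383) and Il17rd (213 and 330.1). With a background of 100 the list had 4 higher and 1 lower. Fgfr1 and Fgfrl1 were under 2-fold with arrays scaled to the same median, and Fgfr1, Fgfr2, Etv4 and Spry4 with the geometric mean of their probe sets, which left 2 higher and 3 lower.

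Growth factors, receptors and binding proteins were higher in 21 of 37 cases, with a median log2 ratio of 1.18. The list is mostly of the PDGF, VEGF and IGF families and also holds other genes such as Kit, Met and Egfr. Igf2, the fetal growth factor, had 121 in SK7_ESC and 2384 in Pme (19.7-fold), and its binding protein genes Igfbp5 (10.2 and 799) and Igfbp4 (190.5 and 1631) were higher. Nrp1, a co-receptor of VEGF and semaphorins, had 30.9 and 819 (at least 16.4-fold), and Vegfc had 108 and 1002. Igfbp2, the only lower member, had 1676 and 349 (4.8-fold lower). The LIF and Jak-Stat list, which includes the pathway that maintains ES cells, had 5 higher and 4 lower of 22. Its receptor genes Lifr (278 and 567), Il6st (171 and 389.5) and Osmr (40.1 and 183) were higher with Jak2 (36.4 and 147) and Stat5b (49.6 and 103), whereas the feedback genes Socs2 (604 and 101) and Socs3 (1185 and 338) were lower with Pim1 (450.0 and 164) and Stat6 (174 and 50.9). With arrays scaled to the same median this list had 2 higher and 4 lower, and Lifr, Il6st and Stat5b were the ones that lost their call. Socs2, Osmr, Lifr, Il6st and Stat5b were under 2-fold with the geometric mean of their probe sets, which left 1 higher.

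Components of Hedgehog reception were higher in 5 of 13 cases with 0 lower. Gas1, a co-receptor, had 79.2 in SK7_ESC and 1273 in Pme (16.1-fold), Cdon, another, had 86.5 and 334, Gli3, a transducer, had 65.9 and 419, and Smo had 118 and 398. The target gene Ptch1 was neither, at 768 and 759. Of 27 Notch genes, 5 were higher and 2 lower. Dlk1, an atypical ligand, had 32.8 in SK7_ESC and 1306 in Pme (at least 26.1-fold), and Hes1 (113 and 471), Hey2 (2.1 and 112), Notch2 (220.5 and 535) and Notch3 (121 and 300.3) were higher. Rbpj, the DNA-binding partner of Notch, had 1225 and 331 and was lower, as was Dtx1 (115 and 12.1). This balance turned with a background of 20, to 5 higher and 6 lower. Smo, Notch2 and Dtx1 lost their call with the geometric mean of their probe sets, which left 3 higher Hedgehog genes. Dlk1 and Notch3 lost it when probe sets of shared sequence were left out, which left 3 higher Notch genes.

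Hippo pathway genes were higher in 11 of 34 cases with 0 lower. The angiomotin family, which holds Yap1 in the cytoplasm, was higher in all 3 measured members, Amot, Amotl1 (109 and 446) and Amotl2 (116 and 418). The kinase gene Lats2 had 12.4 in SK7_ESC and 258 in Pme, Axl had 46.1 and 269, and Ccn1, a secreted target of Yap1, had 62.4 and 839 (13.5-fold). Yap1 itself was 698 and 1082 and neither. Guidance molecules were higher in 20 of 41 cases and lower in 1. Beside Nrp1, the netrin receptor genes Unc5b (60.5 and 567) and Unc5c (3.2 and 366), the ephrin gene Efna1 (13.4 and 311) and the semaphorin genes Sema3a (13 and 203) and Sema3c (23.8 and 200.3) were the largest, and Epha2 (184 and 63.4) was lower. The higher guidance genes were 11 with the geometric mean of probe sets and 10 with a background of 100, and the higher Hippo genes 7 with the geometric mean. Lats2, Axl, Sema3a and Sema3c were among those lost with the geometric mean, and Lats2 also without probe sets of shared sequence.

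**Figure D5:**
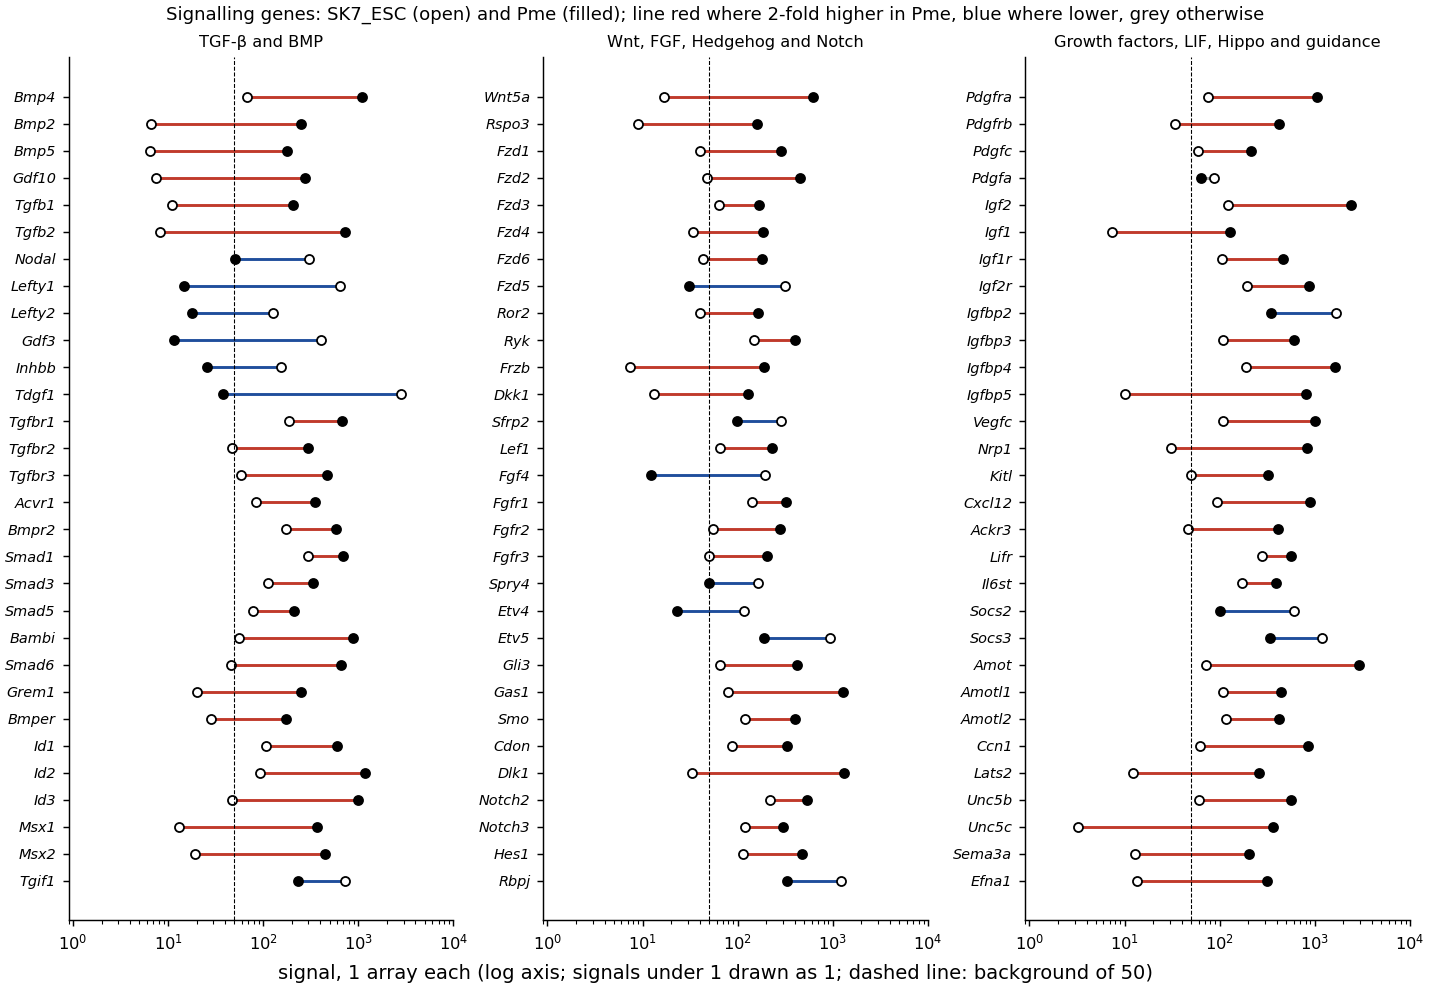
Signals of 90 genes of signalling pathways in SK7_ESC (open circles) and Pme (filled circles), 1 array each, on a log axis with the background of 50 dashed; lines are red where Pme is 2-fold higher, blue where lower and grey otherwise. Bmp4 (67.9 and 1084) and Wnt5a (16.9 and 613) run to the right, and Nodal (306 and 50.4) and Tdgf1 (2788 and 37.6) to the left.

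Imprinted genes, which are read from 1 parental copy and include many regulators of fetal growth, were higher in 18 of 35 cases with 0 lower and a median log2 ratio of 1.18. Peg3, a zinc finger factor, had 244 in SK7_ESC and 4115 in Pme (16.8-fold), and Sgce, a sarcoglycan, had 84.2 and 667. The Cdk inhibitor gene Cdkn1c had 77.6 and 585. Dcn, Dlk1 and Igf2, described above, were the 3 largest. Some of the list were already bright in SK7_ESC, such as Meg3 (1095 and 3217) and Grb10 (1042 and 2581), both chosen after their values were seen. Of 9 oncofetal genes, Dlk1, Gpc3 and Hmga2 (134 and 1598), an architectural chromatin protein, were higher, and Lin28a (898 and 1049) was neither.

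Immediate early and stress genes were higher in 13 of 25 cases and lower in 2. Jun had 47.8 in SK7_ESC and 1225 in Pme (at least 24.5-fold), Fos 133 and 1014 (7.65-fold) and Egr1 151 and 1026 (6.79-fold), followed by Ier5 (42.1 and 284) and the heat shock gene Hspa1b (124 and 540.4). The lower ones were Klf4 and Klf2, members of the pluripotency list as well. Such genes are known to respond quickly to serum and to the dissociation of cells, and a part of either in these ratios was not tested. Of 17 targets of p53, Gadd45g was higher (50.3 and 126) and 5 were lower, namely Pmaip1 (430.4 and 102), Gadd45a (398 and 109), Ei24 (1118 and 378), Cdkn1a (204 and 96.6) and Zmat3 (433 and 214). The higher immediate early genes were 8 with a background of 100. The call for Ier5 was lost with the geometric mean of its probe sets.

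Of 35 cell cycle regulators, 8 were higher and 3 lower. Of the 32 above background that is 25% and 9.38%, against 13.2% and 8.88% over all such genes. The balance became 6 and 6 with arrays scaled to the same median, and 5 were higher with a background of 100. Ccnd2, a D-type cyclin, had 91.1 in SK7_ESC and 884 in Pme (9.7-fold), and the inhibitor genes Cdkn1c, Cdkn2c (24.2 and 274) and Cdkn2a (44.3 and 156) were higher with Cdk6 (64.2 and 174). Ccne1, the cyclin of entry into S phase, had 514 and 80.6 (6.38-fold lower), and E2f8 had 238 and 80.5. Of 43 measured genes of replication and mitosis, 2 were lower, the helicase subunit gene Mcm2 (1238 and 524) and the thymidine kinase gene Tk1 (349 and 162), and 0 higher, with a median log2 ratio of -0.49. The 2 are 4.76% of the 42 above background, against 8.88% over all such genes. Cdk6 lost its call with the geometric mean of its probe sets.

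Ribosomal protein genes had a median log2 ratio of -0.06, and 2 of 47 were lower, the paralogues Rpl39l (755 and 2.8) and Rps4l (2916 and 938). These are 4.44% of the 45 above background, against 8.88% over all such genes. The respiratory chain had a median of -0.27, and 5 of 65 were lower with 0 higher. The 5 are 7.94% of the 63 above background, against 8.88% over all such genes. Apart from Chchd10 these were Cox6b2 (523 and 182), a testis-type subunit of cytochrome oxidase, Atp5g1 (1143 and 496), Uqcrq (963 and 445) and Cyc1 (2026 and 983). In glycolysis 4 of 36 were lower and 1 higher. Hk2, the inducible hexokinase, had 1561 in SK7_ESC and 350.3 in Pme (4.46-fold lower), and Ldhb (1157 and 399), Pdk1 (1540.0 and 551) and Pfkp (584 and 215) were lower, while Eno3 was just over the limit, at 161 and 323. Serine and folate metabolism had 7 of 21 genes lower and 0 higher, with a median of -0.65. Gldc, the glycine decarboxylase, had 610.3 in SK7_ESC and 51.5 in Pme (11.9-fold lower), Cth, which makes cysteine, had 649 and 127, and Mthfd1 had 1614 and 472. Purine synthesis genes Gart (1151 and 382) and Ppat (576 and 215) were among them, as was Shmt1 (535 and 206). Eno3 was under 2-fold with both other scalings, Cyc1 with quantile normalization, and Ppat, Atp5g1 and Uqcrq with the geometric mean of their probe sets. The lower genes of the respiratory chain were 11 with arrays scaled to the same median, and 3 with the geometric mean or without probe sets of shared sequence.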

How the data were processed

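Expression was compared between 2 of 7 samples, 1 array each. Total RNA was hybridised to Affymetrix Mouse Genome 430 2.0 arrays, and the authors deposited 1 intensity per probe set on a linear scale (45101 probe sets) after setting the average signal of each array to 100. The mean with 2% trimmed at each end was 99.97 in both arrays. No source used here names the algorithm that summarised the probes. The labels name an RNeasy kit for RNA, while the methods name TRIzol. Arrays have no read depth, so their number limits the precision.

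Of the probe sets, 35890 are in the annotation used here, 34958 of them with 1 symbol, 932 with several, and 9211 are unnamed. Ratios of Pme to SK7_ESC were taken with signals under 50 raised to 50, in Python 3.11.15 with numpy 2.4.6 and pandas 2.3.3. Genes were counted against 57 lists (1728 entries, 139 of them not measured). The gene choice and the lists were made with earlier results of these data known. Named were the 4 markers, the 25 largest ratios in each direction without predicted genes, up to 6 members per list and direction, members against the direction of most, and genes nearest the limit. Other backgrounds (20 and 100), arrays scaled to 1 median, quantile normalization, the geometric mean or another choice of probe sets, leaving out probe sets of shared sequence and a 3-fold rule were tried. The calling code was tested on simulated data. Columns of the 5 other samples were used for the choice of probe set and for levels printed as such.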

Additional observations from a re-analysis of the deposited data

Results flagged for a closer look

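Signal lay outside the comparison in probe sets that could not be given to 1 gene. Of 10143 such probe sets, 1477 were above background in SK7_ESC or Pme, and of these 142 were 2-fold higher and 115 were 2-fold lower in Pme. They carry either several symbols or none in the annotation used here, so no gene is named from them.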

How the results depend on the processing

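No paired analysis was possible because each group has 1 array. The 1227 higher genes became 1849 with a background of 20, 772 with a background of 100, 784 with the geometric mean of probe sets and 559 with a 3-fold rule. The 827 lower genes became 1292 with arrays scaled to the same median and 299 with the 3-fold rule. The share of genes apart that were higher was 59.7%, and it was 57.0% with a background of 100, 53.9% after quantile normalization, 43.2% with the same median, 55.1% with the geometric mean and 65.2% with the 3-fold rule. Apart from the 3-fold rule, 835 of the 2054 calls were kept under every one of 7 alternatives that measured the gene, 418 higher and 417 lower, and 212 were lost after quantile normalization, 262 with the same median and 86 without probe sets of shared sequence. No gene named as higher or lower was called in the opposite direction under any of these. Of 36 lists with 4 or more higher genes, the number higher fell by over 1.5 times in 17 with the 3-fold rule, 14 with the geometric mean, 11 with a background of 100 and 4 with the same median, and it grew so in 4 with a background of 20. Of 12 lists with 4 or more lower genes, the number lower fell so in 7, 3, 4 and 0, and it grew in 2 with a background of 20, the epithelial junction genes from 7 to 16 and the germ cell genes from 11 to 20. With the 3-fold rule the integrins had 0 higher and 1 lower and the LIF and Jak-Stat genes 1 and 3, and with a background of 100 the latter had 2 and 3. With 1 array a side, neither the spread between cultures nor that between hybridisations is known, and signals near the background carry no order.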

Other observations

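Genes of retinoid handling were higher in Pme in 5 of 19 cases with 0 lower. Aldh1a1, which makes retinoic acid, had 0.8 in SK7_ESC and 248 in Pme (at least 4.97-fold higher), and Rdh10, which makes its precursor, had 67.5 and 215. Both carriers were higher, Crabp1 at 114 and 334 and Crabp2 at 138 and 310.4, as was Cyp26a1 (13.7 and 123), the enzyme that removes retinoic acid. Of 25 chemokines and other immune factors 7 were higher and 0 lower. Cxcl12, a chemokine that guides migrating cells, had 93.1 and 891, and its receptor genes Ackr3 (45.9 and 409.7) and Cxcr4 (7.0 and 166) were higher in the same array. The higher chemokines and immune factors were 3 with a background of 100 and 4 after quantile normalization. Cxcl12 was under 2-fold with the geometric mean of its probe sets, and Crabp2 with arrays scaled to the same median.

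Class I antigen presentation and interferon genes were higher in 6 of 23 cases with 0 lower. B2m, the light chain of class I molecules, had 588 in SK7_ESC and 1778 in Pme (3.02-fold higher), H2-K1 had 126 and 419 and the loading factor gene Tapbp had 98.3 and 361. The interferon genes Ifit3 (16.7 and 225) and Ifit1 (0.5 and 102) were above background in Pme only. Among 34 genes of the secretory pathway and lysosome 7 were higher and 0 lower. All 34 were above background, and the 7 are 20.6%, against 13.2% over all such genes. Creb3l2, a factor of collagen-secreting cells, had 13.1 and 231, and the calcium-binding proteins of the endoplasmic reticulum Rcn3 (149.8 and 676) and Calu (559 and 1504) were higher. The general chaperone gene Hspa5 was neither, at 3100.4 and 3540.4, a gene chosen after its values were seen. Of 26 cholesterol genes, Scd2 (2358 and 5027) and Sc5d (218 and 498) were higher and Apoe (2258 and 232) was lower. These shares (7.69% and 3.85%) were under those of all genes above background (13.2% and 8.88%). With arrays scaled to the same median Scd2 and Sc5d lost their call and 4 of the secretory genes were higher. H2-K1 was under 2-fold with the geometric mean of its probe sets.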
